A study of Mus musculus with 2 samples.

Results

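Chemokines are small secreted proteins that guide migrating cells, and chemokine receptors are the proteins on the target cell that read them. The gene table was searched for symbols that begin with Ccl, Cxcl, Ccr, Cxcr or Ackr and go on with digits and at most 1 letter, and for Xcl1, Xcr1, Cx3cl1 and Cx3cr1. This gave 61 of 23997 gene rows, 39 of them ligands and 22 receptors. The rule uses names alone, but members and lists were taken up with earlier results of these data known. Ccr1l1, a gene of the same family, has a name outside the rule and was left out.

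The RNA came from medullary thymic epithelial cells (mTECs) sorted as MHC class II high, taken from the thymus of C57BL/6 mice. There were 2 libraries, 1 with the genotype label WT and 1 with the genotype label Aire-/-, the null genotype of the transcriptional regulator Aire. Each came from a pool of mice by flow cytometry, and the labels do not state the number of mice, their age and sex or the form of the Aire allele. With 1 library per genotype there is no replicate spread and no test, so every statement below compares those libraries. Where a pair of values is given, the first is from the library labelled WT.

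Chemokines fall into CC, CXC, XC and CX3C families by the spacing of their first cysteines, and most receptors are G protein-coupled and bind several ligands. In the thymus, ligands of Ccr7, Ccr9 and Cxcr4 guide the entry and the steps of developing T cells, and medullary ligands of Ccr4 and Ccr7 draw thymocytes into the medulla. Xcl1 from mTECs is known to position dendritic cells that carry Xcr1. Atypical receptors (Ackr) bind chemokines without the usual G protein signal and take them out of the fluid around the cell.

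Levels are in FPKM, which scales fragments to transcript length and to 1000000 fragments in all, so levels of different genes can be compared per length. A gene counts as measured if its mean over both libraries is at least 0.5 FPKM. It is called lower or higher when the library labelled Aire-/- differs 2-fold from the library labelled WT after 0.1 FPKM is added to each value, which is a rule of size. A log2 ratio printed with an interval is Aire-/- over WT without the added 0.1, and its 95% interval covers counting error only. Ratios without an interval, and medians, include the added 0.1.

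Depth, read from the spacing of low values, was about 47600000 fragments under the WT label and 54100000 under the Aire-/- label. A transcript of 1 kb with no fragment could then have stood at up to 0.0778 and 0.0668 FPKM. The transcript of the targeted gene was higher under the Aire-/- label: Aire stood at 220.6 FPKM under the WT label and 640.2 FPKM under the other (log2 ratio 1.54). A gene-level value cannot isolate a deleted part, so it checks neither label. All 10 mTEC markers were measured, with summed levels of 18556 and 25707 FPKM. By raw value 2 of them were lower, Epcam at 362.7 and 295.7 FPKM and Krt5 at 661.4 and 599.1 FPKM, and 8 were higher, among them H2-Aa at 8398 and 11948 FPKM. Aire alone among them passed the 2-fold rule.

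Most measured chemokine ligands were lower in the library labelled Aire-/-, while receptors were mixed and lay at far lower levels. Of 50 measured members, 30 were lower, 4 higher and 16 neither. Over all 15906 measured genes, 20.5% were lower and 7.09% higher by the same rule. The median log2 ratio was -1.48 over the measured members and 0.05 over all measured genes. At a 4-fold rule 20 members were lower, where 11.9% of all genes were. Above a mean level of 10 FPKM, 9.69% of all genes were lower, and of 32 members 19 were lower and 1 higher. In RNA from many cells, fewer cells of one kind and less RNA per cell cannot be told apart.

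Ligands were far more abundant than receptors. Of 35 measured ligands, 24 were lower, 1 higher and 10 neither (median log2 ratio -2.03). Summed FPKM over all 39 ligands was 4942 and 3837. Of 15 measured receptors, 6 were lower (40%), 3 higher and 6 neither. Over all measured genes, 20.5% were lower and 7.09% higher. Summed FPKM over all 22 receptors was 157.4 and 147.3. In the plot of both libraries' levels the gap between the points is wide for most ligands and narrow for the abundant receptors.

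**Figure D1:**
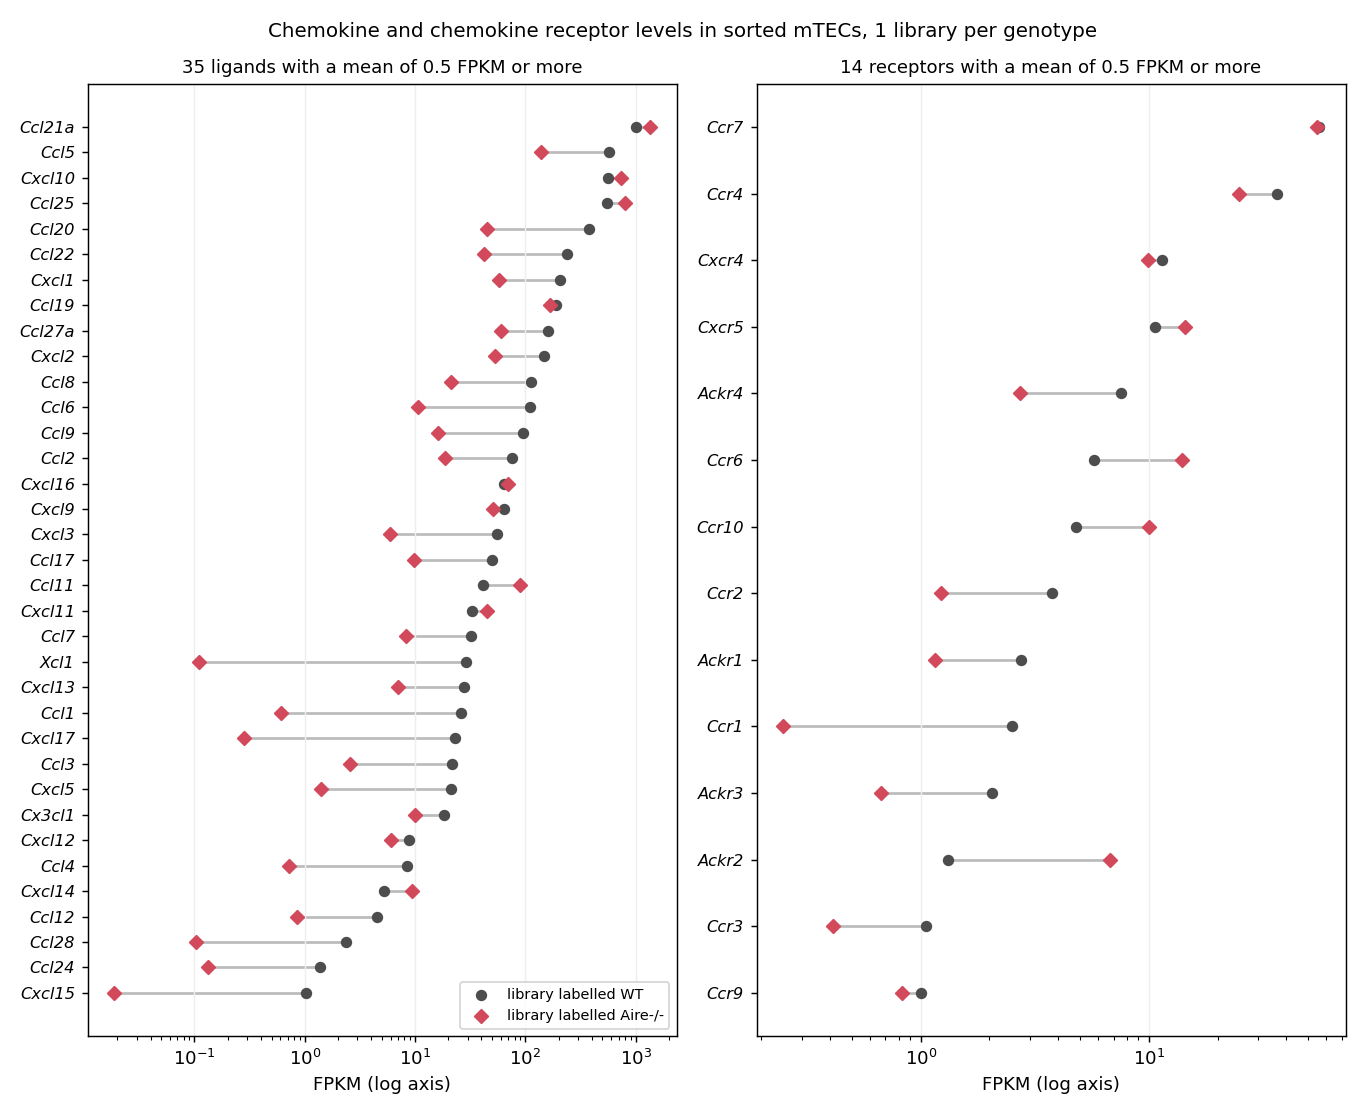
FPKM (log axis) of the 35 measured ligands and 14 receptors, with the library labelled WT as circles and the library labelled Aire-/- as diamonds, in the order of the former. Ccl21a stands highest among ligands in both libraries (1009 and 1346 FPKM), and the longest gap is that of Xcl1 (28.8 and 0.111 FPKM).

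**Figure D2:**
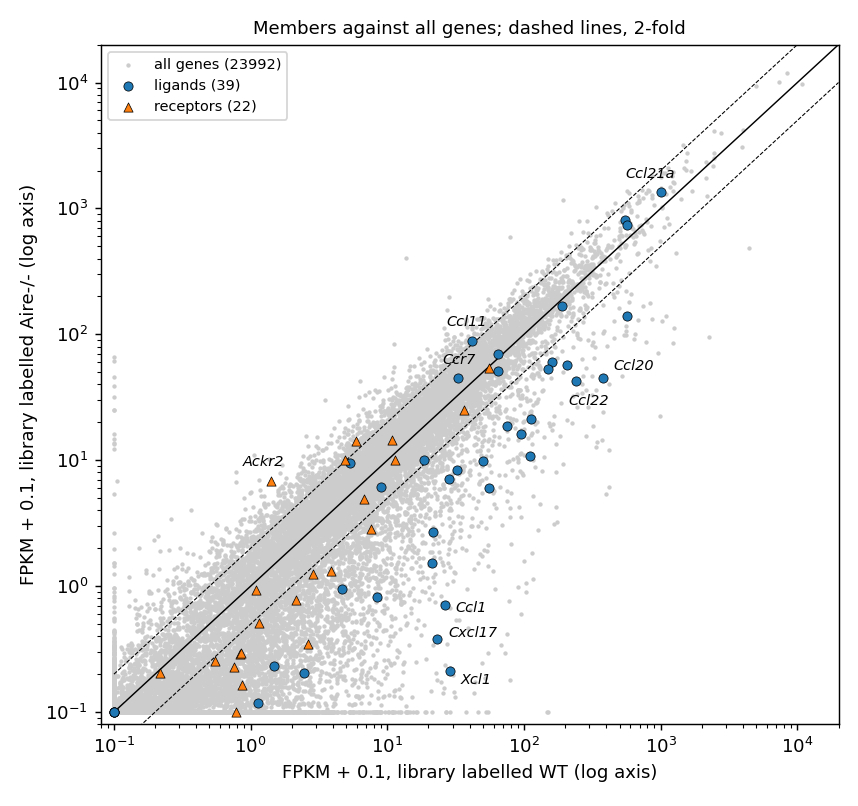
FPKM + 0.1 in the library labelled WT (x, log axis) against the library labelled Aire-/- (y, log axis) for all genes with an estimate (grey), the 39 ligands (circles) and the 22 receptors (triangles), with 2-fold lines dashed. Of the 35 measured ligands 24 lie below the lower dashed line and 1, Ccl11, lies above the upper one.

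The order of the most abundant ligands was not the same in both libraries. In the library labelled WT the order was Ccl21a at 1009 FPKM, Ccl5 at 569.8, Cxcl10 at 563.4, Ccl25 at 546.4 and Ccl20 at 375.5 FPKM. In the library labelled Aire-/- it was Ccl21a at 1346 FPKM, Ccl25 at 809.2, Cxcl10 at 732.9, Ccl19 at 167.3 and Ccl5 at 139.1 FPKM. The ligands Ccl19, Ccl21a, Ccl25 and Cxcl10, a set put together after their values were seen, summed to 2308 and 3056 FPKM. Their share of all ligand FPKM was 46.7% and 79.6%. The other 35 ligands summed to 2634 and 781 FPKM.

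Homeostatic and thymic ligands, which are made without inflammation and place cells in lymphoid tissue, split by receptor. Of 15 in the list, 12 were measured, of which 5 were lower, none higher and 7 neither. The median log2 ratio was -0.72. Their summed level was 2323 and 2537 FPKM. Ccl21a and Ccl19 are the ligands of Ccr7. Ccl21a stood at 1009 and 1346 FPKM, log2 ratio 0.42 (0.40 to 0.44). Ccl19 stood at 189.4 and 167.3 FPKM, log2 ratio -0.18 (-0.24 to -0.12). Neither passed the size rule. Ccl25, the ligand of Ccr9 and a long-known thymic product, stood at 546.4 and 809.2 FPKM, log2 ratio 0.57 (0.54 to 0.59). It too stayed within 2-fold.

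The ligands of Ccr4, which draws T cells after positive selection towards the medulla, were lower together. Ccl22 stood at 240.2 and 42.2 FPKM, log2 ratio -2.51 (-2.55 to -2.46). Ccl17 stood at 49.7 and 9.71 FPKM, log2 ratio -2.36 (-2.59 to -2.12). These are 5.69-fold and 5.12-fold lower levels in the library labelled Aire-/-. Ccl17 and Ccl22 are neighbours on chromosome 8, with Cx3cl1 between them.

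Other lower genes of the homeostatic list were Cxcl13, Ccl27a and Ccl28. Cxcl13, which attracts B cells through Cxcr5, stood at 27.9 and 6.99 FPKM, log2 ratio -1.999 (-2.17 to -1.83). Ccl27a, a ligand of Ccr10 best known from skin, stood at 161.2 and 60.1 FPKM (log2 ratio -1.42). Its main transcript of 405 bp is too short for a counting interval here, and its locus overlaps Il11ra1 in the table. Ccl28, the mucosal ligand of Ccr10 and Ccr3, stood at 2.37 and 0.103 FPKM (log2 ratio -3.60), resting on an estimated 400 and 20 fragments.

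The remaining measured genes of this list stayed within 2-fold. Cxcl12, the ligand of Cxcr4 that retains precursors in thymus and marrow, stood at 8.88 and 6.01 FPKM, log2 ratio -0.56 (-0.71 to -0.41). Cxcl14, made by many epithelia, stood at 5.28 and 9.33 FPKM, log2 ratio 0.82 (0.65 to 0.996). Cxcl16, a ligand anchored in the membrane and read by Cxcr6, stood at 64.3 and 69.2 FPKM, log2 ratio 0.11 (0.06 to 0.15). Cx3cl1, the other membrane-anchored chemokine, stood at 18.5 and 10.03 FPKM, log2 ratio -0.88 (-0.97 to -0.80). Cx3cl1 was thus the nearest to the lower threshold among the ligands called neither.

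The genes Ccl21b, Ccl21c and Ccl27b were listed at 0 in both libraries, as was Ccl26, an eosinophil attractant. Ccl21a and Ccl21b stand in rows that join them to the copies Gm1987 and Gm13304. Gm1987 also has a row of its own, at 22.6 and 48.3 FPKM. The Ccl21 genes, Ccl19 and Ccl27b were placed on unlocalised scaffolds in the table, and near-identical copies of these genes exist. How reads were split among copies is not stated, so each Ccl21, Ccl19 and Ccl27 value is uncertain by that share.

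Inducible ligands that attract myeloid cells made up the largest lower group. Of 18 in the list all were measured, and 17 were lower and 1, Ccl11, higher, with 14 lower at the 4-fold rule. The median log2 ratio was -2.61, and summed level was 1903 and 470.6 FPKM. Ccl20, the ligand of Ccr6 made by epithelium over lymphoid follicles, stood at 375.5 and 45.3 FPKM, log2 ratio -3.05 (-3.13 to -2.97). Its value rests on an estimated 10638 and 1507 fragments, so counting error is small.

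Ligands of Ccr2, the receptor of inflammatory monocytes, lie in 1 cluster on chromosome 11, where Ccl11, which was higher, stands between Ccl7 and Ccl12. Ccl2 stood at 75.6 and 18.7 FPKM, log2 ratio -2.01 (-2.14 to -1.89). Ccl7 stood at 32.5 and 8.33 FPKM, log2 ratio -1.96 (-2.16 to -1.77). Ccl12, a mouse ligand of Ccr2, stood at 4.56 and 0.857 FPKM, log2 ratio -2.41 (-3.26 to -1.63). Ccl8, a neighbour of these genes whose mouse protein acts through Ccr8, stood at 111.9 and 21.1 FPKM, log2 ratio -2.41 (-2.57 to -2.25). Ccl2, Ccl7, Ccl12 and Ccl8 all had ratios close to a 4-fold difference or beyond it.

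Further ligands of inflammatory CC receptors were lower by similar or larger amounts. Ccl5, which attracts T cells and monocytes, stood at 569.8 and 139.1 FPKM, log2 ratio -2.03 (-2.10 to -1.97). Ccl3 stood at 21.4 and 2.59 FPKM, log2 ratio -3.05 (-3.41 to -2.72). Ccl4 stood at 8.37 and 0.715 FPKM, log2 ratio -3.55 (-4.31 to -2.86). Ccl3 and Ccl4 are the macrophage inflammatory proteins. Ccl6 stood at 111.2 and 10.7 FPKM, log2 ratio -3.37 (-3.48 to -3.26). Ccl9 stood at 94.9 and 16.1 FPKM, log2 ratio -2.56 (-2.63 to -2.50). Ccl6 and Ccl9 are rodent ligands of Ccr1.

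The eosinophil attractants that share Ccr3 did not go one way. Ccl11 (eotaxin) stood at 41.4 and 89.2 FPKM, log2 ratio 1.11 (1.03 to 1.19), and was the only ligand called higher. Ccl24, with a mean under 1 FPKM, was lower, with an estimated 73 and 8 fragments. Ccl1, the ligand of Ccr8, belongs to none of these lists. It stood at 26.2 and 0.606 FPKM, log2 ratio -5.44 (-6.48 to -4.62), from an estimated 404 and 11 fragments.

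All 5 genes listed here as ligands of Cxcr2, the neutrophil receptor, were lower (median log2 ratio -3.23). Their summed levels were 431.4 and 117.4 FPKM, and they are also counted in the inducible list above. Cxcl1 stood at 204.7 and 57.4 FPKM, log2 ratio -1.83 (-1.90 to -1.77). Cxcl2 stood at 148.7 and 52.7 FPKM, log2 ratio -1.50 (-1.56 to -1.43). These were the most abundant of the group and had the smallest differences in it. Cxcl3 stood at 55.8 and 5.87 FPKM, log2 ratio -3.25 (-3.44 to -3.06). Cxcl5 stood at 21.1 and 1.42 FPKM, log2 ratio -3.90 (-4.19 to -3.61). Cxcl15, a lung product with a mean under 1 FPKM, rested on an estimated 95 and 2 fragments, and its call ended with 1 FPKM added (log2 ratio -0.997). Cxcl17, a mucosal chemoattractant outside the Cxcr2 group, stood at 23.2 and 0.281 FPKM, log2 ratio -6.36 (-7.50 to -5.43).

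The ligands of Cxcr3, which are induced by interferon and attract effector T cells, stayed within 2-fold. Cxcl9 stood at 64.1 and 51.0 FPKM, log2 ratio -0.33 (-0.38 to -0.29). Cxcl10 stood at 563.4 and 732.9 FPKM, log2 ratio 0.38 (0.36 to 0.40). Cxcl11 stood at 32.9 and 44.7 FPKM (log2 ratio 0.44, with no interval because a transcript length was missing). The isoform split of Cxcl11 differed between the libraries, as given below, so its gene level is uncertain by that split. Their median log2 ratio was 0.38 and their summed level 660.4 and 828.6 FPKM. Cxcl10 and Cxcl11 share a locus with Art3 in the table.

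Xcl1 had the lowest ratio of all members. It stood at 28.8 and 0.111 FPKM, from an estimated 456 and 2 fragments. The log2 ratio was -8.02, and with so few fragments its interval ran from -11.15 to -6.24. Its receptor gene Xcr1, expressed by cross-presenting dendritic cells, was under the minimum at 0.756 and 0.194 FPKM. In the plot of ratios, which holds members with a mean of 2 FPKM or more, Xcl1, Cxcl17 and Ccl1 stand lowest. Cxcl15 and Ccl28 have lower means and are not in it. Their log2 ratios without the added 0.1 were -5.78 and -4.52. The intervals of Xcl1, Cxcl17 and Ccl1 overlap in part, and whether their ratios differ from each other was not tested.

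**Figure D3:**
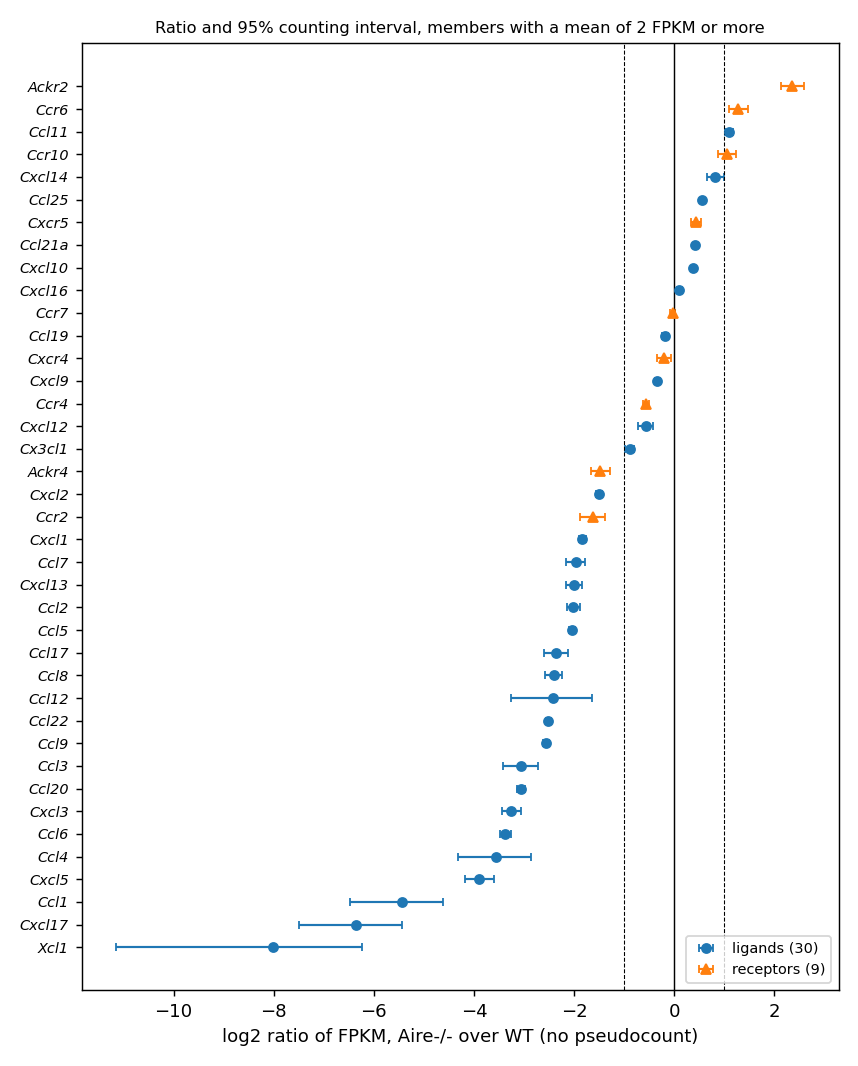
Log2 ratio of FPKM, Aire-/- over WT, without the added 0.1 (x) for the 30 ligands (circles) and 9 receptors (triangles) with a mean of 2 FPKM or more and an interval; bars are 95% counting intervals and dashed lines mark 2-fold. Intervals are short for abundant ligands such as Ccl22 (-2.55 to -2.46) and long for Xcl1 (-11.15 to -6.24).

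Chemokine genes lie in clusters, and the ratios were alike within some clusters and not in others. Members under 500 kb apart formed 6 groups of 3 or more genes. Coordinates are mm10 from the gene table, and from RefSeq for genes whose locus the table merges with a neighbour. On chromosome 11 from 83525779 to 83664683, Ccl5, Ccl9, Ccl6, Ccl3 and Ccl4 were all lower, 5 of 5, with a median log2 ratio of -3.00. The 1 other measured gene in that stretch, E230016K23Rik, was higher (log2 ratio 1.08). From 82035577 to 82179812 on the same chromosome, Ccl2, Ccl7, Ccl12, Ccl8 and Ccl1 were lower. Ccl11 lies between Ccl7 and Ccl12 and was higher.

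Both CXC clusters lie on chromosome 5 and differed from each other. From 90759298 to 90905938, Cxcl5, Cxcl3, Cxcl15, Cxcl1 and Cxcl2 were lower, 5 of 5. The platelet chemokine genes in the same stretch were lower too, Pf4 at 35.0 and 4.37 FPKM and Ppbp at 6.29 and 0.101 FPKM. From 92321331 to 92363296, Cxcl9, Cxcl10 and Cxcl11 were neither, 0 of 3. On chromosome 8 from 94745684 to 94812036, Ccl22 and Ccl17 were lower while Cx3cl1 between them stayed within 2-fold. In the receptor cluster on chromosome 9, Ccr1, Ccr3 and Ccr2 were lower, and Ccr9 stayed within 2-fold.

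**Figure D4:**
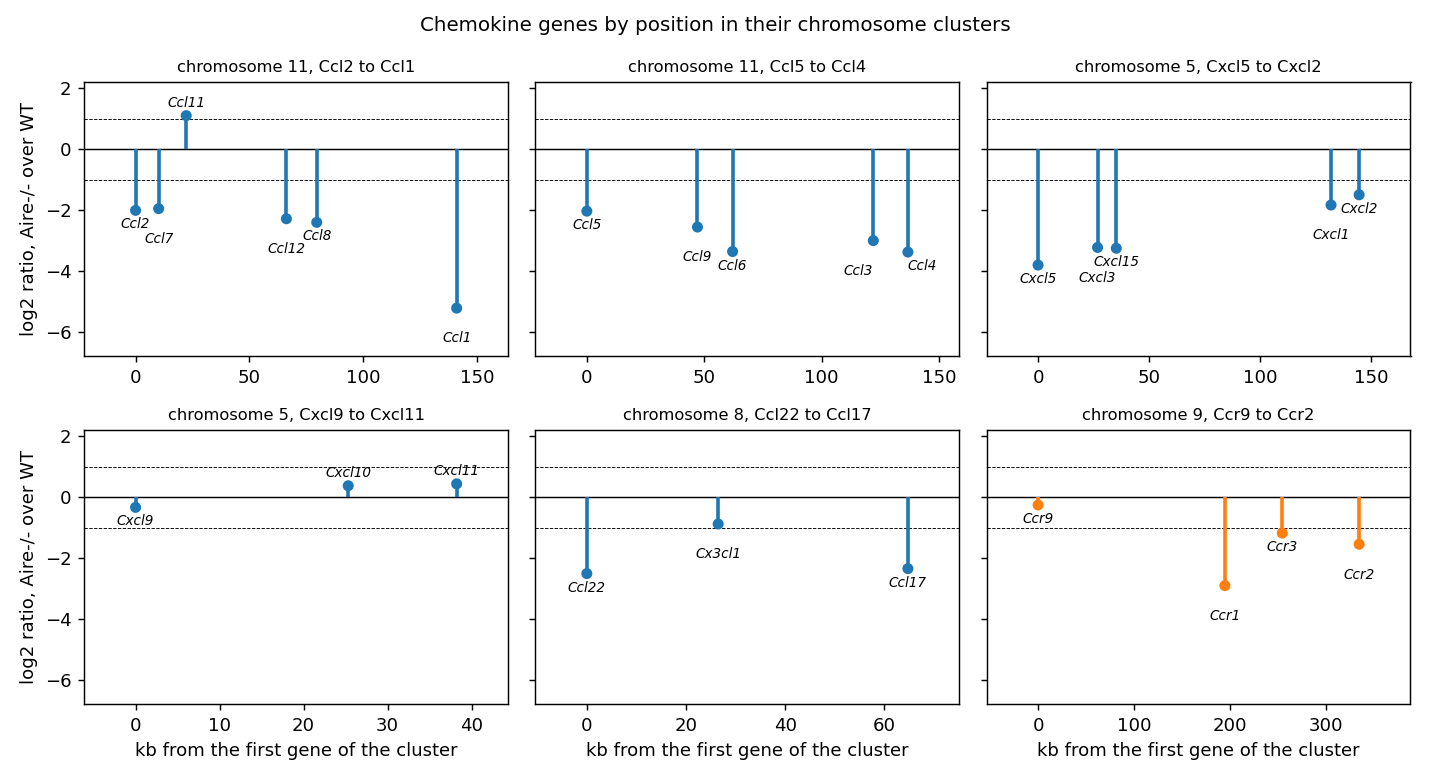
Log2 ratio, Aire-/- over WT, with 0.1 FPKM added (y) against the distance in kb from the start of the first gene (x) for members in the 6 chromosome clusters; ligands are blue, receptors orange, and dashed lines mark 2-fold. In the chromosome 11 panel from Ccl2 to Ccl1, Ccl11 points up while its 5 neighbours point down.

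Promoter sequences are shown for a few ligands picked as examples, which do not stand for all lower ligands. They are the lower trio Cxcl1, Cxcl2 and Cxcl3, the lower Ccl20, Cxcl10, which was neither, and Xcl1, which had the lowest ratio. They are RefSeq sequence of assembly GRCm38.p6, the build of mm10, 5′ to 3′ on the gene's strand and ending at the base before the start site. Capitals mark matches to the consensus of the kappaB site, bound by the NF-kappaB family, and in Cxcl10 also the match to the core of the interferon-stimulated response element (ISRE). Where capitals run past one kappaB match, 2 matches on opposite strands overlap.
Cxcl1 (chr5:90891125-90891244, + strand): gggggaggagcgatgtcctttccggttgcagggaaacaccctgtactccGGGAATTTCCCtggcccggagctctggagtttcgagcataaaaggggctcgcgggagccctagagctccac
Cxcl2 (chr5:90903779-90903898, + strand): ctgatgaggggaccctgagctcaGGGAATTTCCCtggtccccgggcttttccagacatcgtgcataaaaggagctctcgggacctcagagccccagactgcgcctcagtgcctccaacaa
Cxcl3 (chr5:90785981-90786100, + strand): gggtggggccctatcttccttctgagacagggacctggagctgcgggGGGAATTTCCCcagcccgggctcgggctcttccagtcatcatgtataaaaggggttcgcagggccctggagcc
Ccl20 (chr1:83116646-83116765, + strand): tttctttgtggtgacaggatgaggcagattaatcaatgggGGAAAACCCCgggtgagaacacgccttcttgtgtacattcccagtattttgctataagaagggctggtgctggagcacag
Cxcl10 (chr5:92348890-92349119, - strand): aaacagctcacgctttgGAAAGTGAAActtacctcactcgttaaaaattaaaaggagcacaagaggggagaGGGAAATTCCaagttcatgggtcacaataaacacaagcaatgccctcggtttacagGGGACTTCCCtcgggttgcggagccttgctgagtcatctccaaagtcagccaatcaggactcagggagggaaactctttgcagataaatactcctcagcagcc
Xcl1 (chr1:164935523-164935642, - strand): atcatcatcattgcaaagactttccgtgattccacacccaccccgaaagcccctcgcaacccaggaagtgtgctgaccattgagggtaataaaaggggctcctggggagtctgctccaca

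Cxcl1, Cxcl2 and Cxcl3 carry the same 11 letters in capitals, GGGAATTTCCC. It begins 71, 97 and 73 bases before the start site, in that order. Ccl20 has 1 match, beginning 80 bases before the start. Cxcl10 has 2 kappaB matches and 1 ISRE match, and Xcl1 has none of either in its 250 bases. A promoter entry was found for 45 of 61 members. A kappaB match in the 250 bases before the start, on either strand, was found in 9 of these 45 genes. The share was 4.46% over all 27025 genes in the table and 3.90% over its 32851 promoters.

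The kappaB matches occurred in members of each kind of call. They were in Ccl20, Cxcl1, Cxcl2, Cxcl3, Ccl9 and Ccr3, which were lower, in Ackr2 and Ccr6, which were higher, and in Cxcl10, which was neither. Of 23 lower members with a promoter entry, 6 had a match. The ISRE core was found in 3.46% of all genes (2.98% of promoters) and in 3 of 45 members (6.67%). These were Ccl19, Cxcl10 and Cxcl14, none of them called lower, and 3 matches are too few to read a link with the calls. The TATA motif TATAAA was found in 14.3% of all genes (12.4% of promoters) and in 14 of 45 members (31.1%). Among the members without an entry were Ccl2, Ccl4, Ccl5, Ccl7, Ccl11, Ccl21c, Ccl24, Ccl26, Ccr7, Ccr10, Cxcl5, Cxcl11, Cxcl16, Cxcl17 and Cxcr5. A match of letters is a description and not a measured binding site.

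Among receptors, the most abundant stayed within 2-fold. Ccr7, which brings thymocytes and dendritic cells to Ccl19 and Ccl21, stood at 55.5 and 54.4 FPKM, log2 ratio -0.03 (-0.09 to 0.03). It made up 35.3% and 36.9% of receptor FPKM. Ccr4 stood at 36.6 and 24.8 FPKM, log2 ratio -0.56 (-0.62 to -0.50). Its ligands Ccl17 and Ccl22 were the ones that were lower. Cxcr4 stood at 11.4 and 9.90 FPKM, log2 ratio -0.20 (-0.34 to -0.06). Cxcr5, the receptor of Cxcl13, stood at 10.6 and 14.5 FPKM, log2 ratio 0.44 (0.34 to 0.55). Those 4 were the receptors with a mean of 10 FPKM or more, and none passed the rule.

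The other CC receptors went both ways. Ccr6, the receptor of Ccl20, was higher at 5.75 and 14.0 FPKM, log2 ratio 1.29 (1.11 to 1.47). Its ligand was lower, so the pair went in opposite directions. Ccr10, the receptor of Ccl27 and Ccl28, was higher at 4.80 and 10.02 FPKM, log2 ratio 1.06 (0.88 to 1.25). With 1 FPKM added in place of 0.1, its log2 ratio was 0.93 and the call ended. Its ligands Ccl27a and Ccl28 were lower.

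Ccr1, Ccr2 and Ccr3, receptors of inflammatory CC ligands, were lower. Ccr2 stood at 3.77 and 1.23 FPKM, log2 ratio -1.62 (-1.87 to -1.38), and was lower, as were its ligands. Ccr1 stood at 2.51 and 0.2496 FPKM (log2 ratio -2.90), from an estimated 316 and 36 fragments, and was also lower. Ccr3, with a mean under 1 FPKM, was lower with an estimated 154 and 69 fragments. With 1 FPKM added its log2 ratio was -0.54 and the call ended. The family member outside the naming rule, Ccr1l1, stood at 1.18 and 0.1001 FPKM and was lower.

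Several receptors of the ligands above were scarce in the mTEC RNA. Under the minimum were Ccr8, Cxcr1, Cxcr2, Cxcr3, Cxcr6, Xcr1 and Cx3cr1. Each had a lower raw value in the library labelled Aire-/-. In the library labelled WT they lay between 0.119 FPKM (Cxcr3) and 0.768 FPKM (Cxcr2). In the library labelled Aire-/- they lay between 0.103 FPKM (Cxcr3) and 0.194 FPKM (Xcr1), except Cxcr2 at 0.0642 FPKM and Cxcr1, which was listed at 0 (up to 0.0581 FPKM allowed by a count of 0). Cxcr6, the receptor of Cxcl16, stood at 0.656 and 0.128 FPKM, and Cx3cr1, the receptor of Cx3cl1, at 0.449 and 0.154 FPKM. Cxcr2 rested on an estimated 104 and 10 fragments. Cxcr3 rested on 9 and 9, so a difference in it was not detectable at this depth.

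All 4 atypical receptors were measured, and 3 were lower and 1 higher. Ackr2, which binds and degrades inflammatory CC ligands, stood at 1.31 and 6.76 FPKM, log2 ratio 2.36 (2.13 to 2.60), from an estimated 177 and 1028 fragments. This was the highest ratio of any member. Ackr4, which takes up Ccl19, Ccl21 and Ccl25, was lower at 7.54 and 2.72 FPKM, log2 ratio -1.47 (-1.66 to -1.28). Ackr3, which takes up Cxcl12, stood at 2.04 and 0.672 FPKM (log2 ratio -1.47). Ackr1, the broad chemokine binder of venules and red cells, stood at 2.76 and 1.16 FPKM (log2 ratio -1.19). With 1 FPKM added in place of 0.1, the ratios of Ackr3 and Ackr1 were -0.86 and -0.80 and their calls ended.

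Isoform rows added detail for a few members. Of 7 members with several isoforms above 0 and a mean of 2 FPKM or more, the share of an isoform moved by at least 25 percentage points in 1. In Cxcl11, the protein-coding NM_019494 made up 0.0597% and 46.1% of the gene. The non-coding NR_038116 made up 99.9% and 53.9%. In Ackr2, NM_021609 made up 0.00415% and 20.3%. In Ccr6, NM_001190337 made up 0.0114% and 14.9%. Shares in Ccl20 barely moved, with NM_016960 at 59.7% and 58.9%. How well reads were divided among isoforms that overlap was not measured.

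Ccr9, the receptor of Ccl25, shows what such a split does to a level. It stood at 1.003 and 0.826 FPKM, yet the estimated fragments were 129 and 225. The table assigned 99.7% of the gene to the 2888 bp transcript NM_001166625 in the library labelled WT. In the library labelled Aire-/- it assigned almost all to the 5197 bp transcript NM_009913. FPKM divides by length, so the level was lower while the fragments were more, and no direction can be read for Ccr9.

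Related genes outside the naming rule went both ways. Of 11 such genes, all measured, 5 were lower (45.5%), 3 higher and 3 neither. By the same rule 20.5% of all measured genes were lower and 7.09% higher. Besides Pf4 and Ppbp, the lower genes were Rarres2, which encodes chemerin, at 62.3 and 22.2 FPKM, the chemerin-binding receptor gene Ccrl2 at 17.5 and 5.75 FPKM, and Gpr182 at 9.03 and 3.05 FPKM. The higher genes were Mif, a cytokine that also binds Cxcr2 and Cxcr4, at 79.4 and 191.9 FPKM, Cmtm7 at 55.6 and 127.3 FPKM, and Cklf at 6.93 and 15.6 FPKM.

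Genes that carry the signal behind chemokine receptors were mostly within 2-fold. Of 27 measured genes, 9 were lower (33.3%), 1 higher and 17 neither (median log2 ratio -0.07). The shares over all measured genes were 20.5% lower and 7.09% higher. Pik3r5, a subunit of the PI3K that G proteins activate, stood at 25.5 and 4.26 FPKM, and its catalytic partner Pik3cg was lower too. Plcb2, a phospholipase C activated by G proteins, stood at 30.7 and 5.95 FPKM. Adrbk2, Rgs2, Rgs16, Elmo1, Plcb3 and Vav1 were the other lower genes. Arrb2, an arrestin that takes receptors off the surface, was higher at 31.0 and 68.0 FPKM.

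Markers of other cells are given beside these results, and their part in them was not tested. Over all measured genes 20.5% were lower by the same rule. Of 13 dendritic cell and macrophage markers, 10 were measured, with 8 lower and none higher, and their summed level was 137.4 and 58.2 FPKM. Among them Cd14 stood at 59.9 and 5.57 FPKM, C1qa at 18.6 and 2.10 FPKM and Cd209a at 2.91 and 0 FPKM. Fcgr1, at 0.0966 and 0 FPKM, was under the minimum in this list. Zbtb46 at 9.13 and 15.0 FPKM and Batf3 at 16.4 and 28.2 FPKM were neither, with higher raw values in the library labelled Aire-/-. The markers of this list are given beside the myeloid-attracting ligands and Ccr1 and Ccr2, several of which macrophages can express. Of 3 neutrophil markers only 1 was measured, Mpo at 21.5 and 0.241 FPKM. Elane at 0.375 and 0 FPKM and Csf3r at 0.538 and 0.0054 FPKM were under the minimum. The summed level of 22.4 and 0.246 FPKM is thus almost all Mpo.

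Lymphoid and stromal markers were also given for the members such cells express. Of 9 measured T cell markers 2 were lower (22.2%), with a summed level of 33.5 and 20.96 FPKM. Of 5 B cell markers 1 was lower (20%) and 1 higher, with a sum of 42.4 and 41.7 FPKM. Both shares are near the 20.5% of all measured genes. Of 2 measured natural killer and innate lymphoid markers 1 was lower, with a sum of 5.43 and 4.08 FPKM and Ncr1 listed at 0 in both libraries. Of 4 measured fibroblast and endothelial markers 2 were lower, with a sum of 26.1 and 12.0 FPKM.

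Markers of mTEC subsets that resemble peripheral cells are given as well, and the size of these subsets was not measured. All 5 tuft-like markers were lower, with a sum of 286.1 and 74.9 FPKM. Of 6 microfold-like markers 3 were lower and 3 neither, with a sum of 1683 and 1038 FPKM. Among the latter, Gp2 stood at 375.3 and 24.0 FPKM and Spib at 180.8 and 262.5 FPKM. Microfold cells of the gut are known to express Ccl9 and to lie within follicle epithelium that makes Ccl20.

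The authors' deposited table gives a q-value for each gene from the same pair of libraries. The lowest q among members in the authors' deposited table was 0.1249, for Ccl20, Ccl22, Ccl9 and Cxcr1. No member had a q of 0.05 or less there, against 70 genes in all. Those q-values compare 1 library with 1 other and carry no spread between animals.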

How the data were processed

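Polyadenylated RNA was sequenced from 2 libraries, 1 per genotype. The deposited gene and isoform tables hold FPKM, made by the authors with TopHat2 and Cuffdiff on mm10, per the submitters' processing notes. Not given in the sources used here were their versions, annotation and scaling. Each deposited row also has a p-value and a q-value of the authors, and q is quoted as theirs. FPKM depends on how the tool split reads among copies and isoforms. The 5 rows that Cuffdiff left without an estimate were treated as missing, and none is a member.

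Ratios were log2((FPKM Aire-/- + 0.1)/(FPKM WT + 0.1)), called at 2-fold where the mean reached 0.5 FPKM, a rule of size, since 1 library per genotype allows no test. Fragments were estimated because low FPKM values times transcript length, less 190 bp (WT) or 170 bp (Aire-/-), fall on whole multiples of 1 step. Of 665 and 1038 low values, 80.9% and 78.5% lay within 0.1 of a whole number. Step and offset were fitted to these same values, so the shares do not test them. Lengths came from GENCODE M21. Intervals are exact conditional binomial 95% intervals, given where no isoform is under 500 bp. Only counting error is covered, and without molecular identifiers 2 fragments can come from 1 molecule. The floor for a count of 0 is 3 fragments.

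Members are named, except 1 that is counted but not reported here. Those with a mean of 1 FPKM or more have both values, as do the receptors of listed pairs, and those with a mean of 2 FPKM or more have an interval where one could be computed. The members and lists were chosen with earlier results of these data known. Rows that join several symbols, 2 of 61, counted as members. All 61 symbols matched the RefSeq gene table. The gene table placed 48 members, RefSeq 8 whose locus was merged with another gene, and 5 stand on scaffolds. Alternatives changed the pseudocount, the minimum, the fold, the scaling and the gene rows. The interval script was tested on simulated data. Python 3.11.15, NumPy 2.4.6, pandas 2.3.3 and SciPy 1.17.1 were used.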

Additional observations from a re-analysis of the deposited data

How the results depend on the processing

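The counts were followed under 10 alternatives, and lower members outnumbered higher ones in each. The number of lower members ranged from 20 (4-fold rule) to 36 (no minimum, and FPKM rescaled to 1000000 per library, which lifts more members over the same minimum), against 30. The number of higher members ranged from 1 (4-fold rule, Ackr2) to 5 (1.5-fold rule), against 4. Counting rows of 1 symbol alone, chosen after seeing the data, left 30 and 4. Among 459 values of 46 single members, 0 changed sign. Only rescaling, centring and summing isoform rows could have changed a sign. The pseudocount, the minimum, the fold and the choice of rows cannot, so most of these values do not test it. Ccr10 lost its call with a pseudocount of 1 (0.93), on rescaling (0.98) and when centred on the median of all genes (0.99). With a pseudocount of 1, 26 members were lower, and Ackr1, Ackr3, Ccr3 and Cxcl15 lost their calls. With the 1.5-fold rule Cx3cl1 became lower and Cxcl14 higher. No paired analysis was possible because there is 1 library per genotype. Spread between mice could not be measured, and members under about 10 fragments in a library, such as Xcl1 and Cxcl15, have ratios of uncertain size.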
